A study of Homo sapiens with 24 samples.

Results

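The experiment compared how osteosarcoma cells responded to mocetinostat while the drug was present and after it had been withdrawn. It comprised all 24 of the 24 RNA-seq libraries of the series, chosen by their titles: 12 from U2OS cells and 12 from AID-DIvA U2OS cells, with 3 biological replicates in each of 8 groups. The U2OS groups were WT and ID3-KO cells, either untreated or collected after 24 h of mocetinostat. The AID-DIvA groups were WT and ID3-KO cells, either untreated or treated for 24 h and then kept for 24 h in fresh medium without the drug. AID-DIvA is U2OS with an integrated, inducible AsiSI nuclease, which was not induced for these libraries as far as the methods say. U2OS is a human osteosarcoma line, and ID3 is a member of the ID family, which binds basic helix-loop-helix factors and keeps them off DNA. Neither the labels nor the methods give a mocetinostat dose for these libraries.

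Stage and cell line label coincided throughout: every library collected before recovery was labelled U2OS, and every library collected after recovery was labelled AID-DIvA U2OS. An effect of recovery and an effect of the cell line therefore cannot be told apart, and "before recovery" and "after recovery" below name both at once. The stage of the U2OS libraries was inferred from the series text, which names no recovery for them, and from the methods. Their library names also carry the word DivA, so the labels do not settle how far the lines differ. In 12 libraries, those of AID-DIvA cells, the treatment field named the opposite treatment from the title, and the titles were followed.

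Mocetinostat inhibits the class I histone deacetylases HDAC1, HDAC2 and HDAC3 and, less strongly, HDAC11. These enzymes remove acetyl groups from histone tails, mostly within repressor complexes such as NuRD, Sin3, CoREST and NCoR, and their inhibition raises histone acetylation within hours. Silent tissue-specific genes are commonly switched on by such drugs, while many highly expressed genes lose transcription. Histone acetylation was not measured in these libraries, so how long it stayed raised after withdrawal is not known here. Which RNA stays changed after withdrawal is a question of its own.

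Total counts per library ran from 46285533 to 70692114 before recovery and from 37878751 to 76906266 after it. ID3 RNA was lower in KO than in WT cells in each of the 4 pairs of groups but was still counted in every KO library, with 62.4 ± 15.9 CPM (counts scaled to the library total; SD, n = 3) in untreated U2OS WT cells against 30.6 ± 1.53 in KO cells, and 50.4 ± 2.20 in untreated AID-DIvA WT cells against 34.8 ± 3.61 in KO cells. One library, U2OS WT untreated replicate 1, stood apart from its group, and the counts of calls at each stage, of the difference of the responses and of the gene groups stayed within 1.5 times without it. The other counts were not recomputed without it. The mitochondrial share of counts was 8.06% to 9.47% in treated and 6.48% to 9.27% in untreated cells after recovery, against 5.84% to 6.87% and 5.59% to 6.54% before it, and its part in the results was not tested. Of the osteoblast lineage markers, COL1A1, SPARC, RUNX2 and SPP1 were present, while BGLAP, IBSP and SP7 were below 1 CPM in the untreated libraries.

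While the drug was present, upregulation dominated among genes with large changes. Before recovery 3441 of 23087 genes were upregulated (14.9% of those tested) and 1298 were downregulated (5.62%), where a call required an adjusted p below 0.05 by edgeR's quasi-likelihood test and a fold change of more than 1 on the log2 scale in either direction. After recovery 1285 genes were upregulated (5.57%) and 568 downregulated (2.46%). A gene near 0 CPM can pass the fold threshold upward more readily than downward. With at least 10 counts required in every library, 1613 genes were upregulated and 725 downregulated before recovery. By adjusted p alone, without the fold threshold, the directions were near balance. Before recovery 8031 genes were higher (34.8%) and 7701 lower (33.4%), and after it 5379 were higher (23.3%) and 5511 lower (23.9%). The difference of the responses, the log2 fold change after recovery minus that before it, was tested in the same fit over 24 libraries. It was below -1 and significant for 2773 genes (12%) and above 1 and significant for 1320 genes (5.72%). In cultures measured in bulk, fewer cells carrying an RNA and less of it per cell cannot be told apart. Untreated AID-DIvA and U2OS cells themselves differed at 585 genes (2.53%). The responses at both stages, which share no library, correlated across genes with a Pearson coefficient of 0.459 and a Spearman coefficient of 0.299 over 23087 genes. Genes are not independent replicates, and this is a description.

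**Figure D1:**
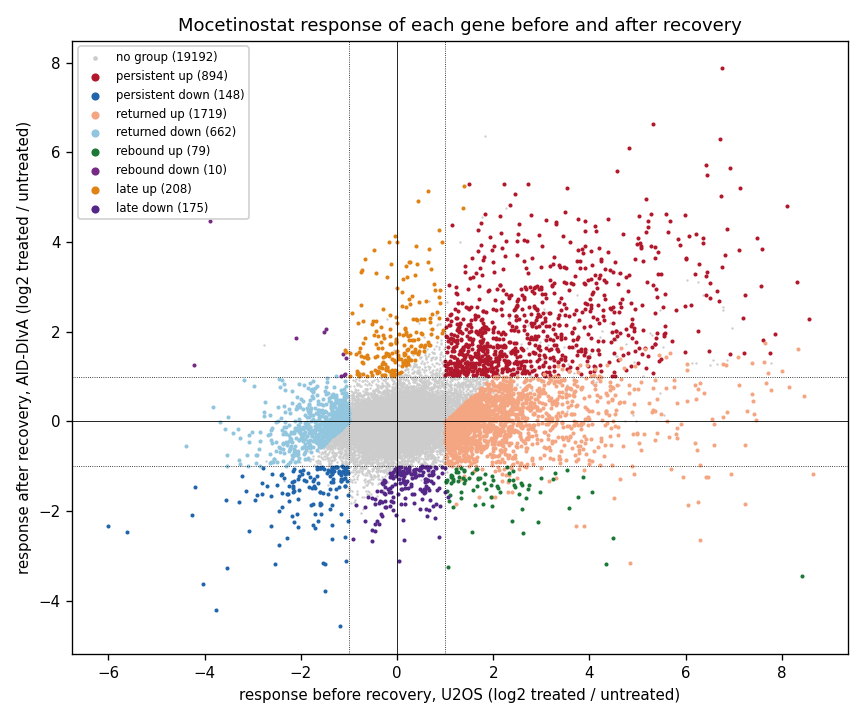
Each point is a gene, with its log2 fold change (treated against untreated) before recovery on the horizontal axis and after recovery on the vertical axis, coloured by gene group. Of the 3441 genes upregulated before recovery, 894 were upregulated after it as well, and the median log2 fold change of the 3441 fell from 1.81 to 0.45.

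Genes were sorted by what their response did. Persistent genes were called at both stages in the same direction, and rebound genes at both stages in opposite directions. Returned genes were called before recovery and not after it, with a significant difference of the responses toward 0. Late genes were called after recovery only, again with a significant difference. Of the 3441 genes upregulated before recovery, 1719 had returned (7.45% of genes tested), 894 (26%) persisted (3.87% of genes tested), 79 (2.30%) had rebounded to below the untreated level, and 749 (21.8%) met none of these rules. Of the 1298 downregulated genes, 662 (51%) had returned (2.87% of genes tested), 148 (11.4%) persisted (0.641% of genes tested) and 10 (0.770%) had rebounded. Many members were low: 836 of the 1719 returned and 333 of the 894 persistent upregulated genes had a mean of at least 1 CPM. Among downregulated genes 404 of the 662 returned and 67 of the 148 persistent ones did. Read from the other end, 894 of the 1285 genes upregulated after recovery (69.6%) had already been upregulated before it, while 208 (16.2%) were late (0.901% of genes tested). Only 148 of the 568 genes downregulated after recovery (26.1%) had been downregulated before it, 175 (30.8%) were late (0.758% of genes tested), and 79 (13.9%) had been upregulated.

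The share of genes called again rose with the size of the first response. Among upregulated genes with a log2 fold change of 1 to 2 before recovery, 327 of 1928 (17.0%) were upregulated after it, with a median of 0.29 after recovery. The share was 225 of 757 (29.7%) from 2 to 3, 147 of 364 (40.4%) from 3 to 4 and 195 of 392 (49.7%) above 4, where the median after recovery was 1.51. For downregulated genes the share was 96 of 1106 (8.68%) from -1 to -2 and 40 of 160 (25%) from -2 to -3 and 7 of 25 (28%) from -3 to -4, with only 7 genes beyond -4. The same threshold of 1 was used at both stages. A larger first response can therefore pass it again even if all responses shrink by a like fraction. The rise in the share does not show that larger responses faded less.

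**Figure D2:**
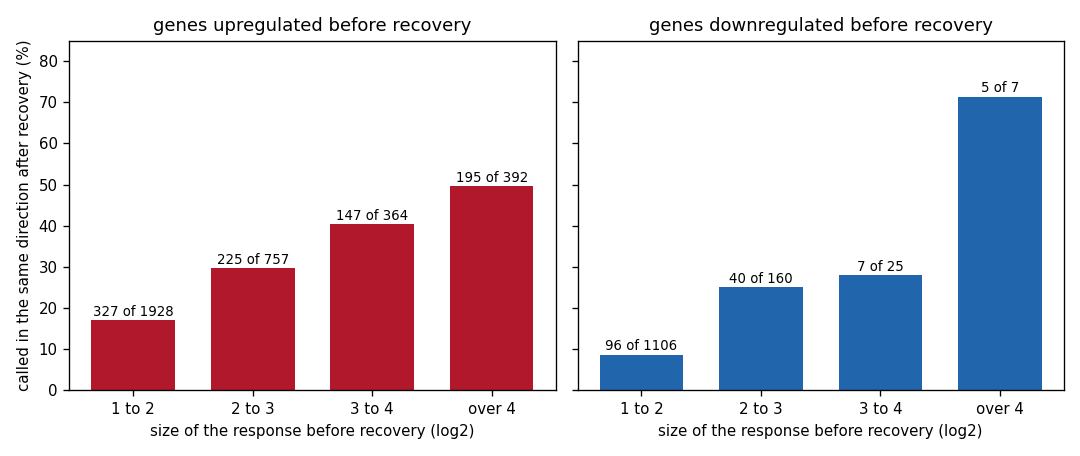
Share of genes called in the same direction after recovery (percent), by the size of the log2 fold change before recovery, for upregulated (left) and downregulated (right) genes, with the counts above each bar. For upregulated genes the share was 17.0% in the lowest bin and 49.7% in the highest.

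Persistent genes that were upregulated had a median log2 fold change of 2.48 before and 1.85 after recovery. The difference of the responses was called toward a smaller response for 244 of the 894 genes, toward a larger response for 47 and in neither direction for 603. Those 603 genes are not shown to be equal at both stages. The named examples are the largest that passed a rule on level, overlap and agreement of WT and KO fits: KRT20, a keratin of intestinal and urothelial epithelium, HLA-DRA, the invariant alpha chain of the HLA-DR receptor, STMN2, a microtubule regulator of growing neurites, and IL8, a chemokine that attracts neutrophils.

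KRT20 (ENSG00000171431.3, chr17:39032193-39041479, minus strand) was at 0 to 0.209 CPM in the 6 untreated U2OS libraries (median 0.0563) and at 5.58 to 11.9 CPM in the 6 treated ones (median 7.56). After recovery it was at 0 to 0.0404 CPM in untreated cells (median 0.0172) and at 1.88 to 6.81 CPM in treated cells (median 3.55). Treated and untreated libraries did not overlap at either stage, and the untreated AID-DIvA libraries held 0 to 2 counts each, so the fitted log2 fold changes of 6.76 and 7.87 rest on few counts. HLA-DRA rose from 0.0194 to 0.220 CPM (median 0.0922) to 6.74 to 10.3 CPM (median 8.82) before recovery, a log2 fold change of 6.43 (SE 0.18, edgeR adjusted p = 5.5e-22). After recovery it stood at 3.49 to 4.31 CPM against 0.0172 to 0.109 CPM, a log2 fold change of 5.72 (SE 0.20), and the difference of the responses was -0.71 (adjusted p = 0.15 by edgeR). STMN2 was at 11.4 to 12.5 CPM in treated cells before recovery and at 4.10 to 5.87 CPM after it, and untreated libraries did not exceed 0.275 CPM at either stage. Its response was smaller after recovery by 1.93 on the log2 scale (SE 0.40, edgeR adjusted p = 0.00015). IL8 reached 38.3 to 47.6 CPM before recovery (untreated 0.236 to 2.54) and 13.4 to 25.3 CPM after it (untreated 0.519 to 1.25), log2 fold changes of 5.22 (SE 0.32) and 4.46 (SE 0.34).

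Fewer genes stayed low. The 148 persistent downregulated genes had a median log2 fold change of -1.63 before and -1.42 after recovery. TNNT2, the troponin T of cardiac muscle, was at 2.41 to 8.81 CPM in untreated (median 5.26) and 0.183 to 0.636 CPM in treated cells (median 0.451) before recovery, and at 5.66 to 15.3 CPM (median 10.4) and 0.263 to 2.31 CPM (median 1.03) after it. The groups did not overlap, with log2 fold changes of -3.53 (SE 0.17) and -3.27 (SE 0.15). DRD1, a dopamine receptor, fell at both stages with log2 fold changes of -3.07 (SE 0.14) and -2.45 (SE 0.14), from 11.9 to 18.7 CPM down to 1.09 to 2.84 CPM and from 8.80 to 14.1 CPM down to 0.846 to 3.68 CPM. CXCL14, a chemokine, had log2 fold changes of -2.29 (SE 0.31) and -2.59 (SE 0.36), but its untreated level was already lower in AID-DIvA than in U2OS cells, at a median of 7.60 against 29.8 CPM. WNT5B, a WNT ligand, recovered in part: its log2 fold change moved from -3.30 (SE 0.16) to -1.79 (SE 0.15), a difference of 1.51 (edgeR adjusted p = 1.5e-06).

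The largest group returned. The 1719 returned genes that had been upregulated had a median log2 fold change of 1.88 before and 0.01 after recovery, and the median of the 662 that had been downregulated moved from -1.48 to -0.06. A returned gene is not thereby shown to be at its untreated level. Of all 3441 genes upregulated before recovery, 483 (14%) had a confidence interval after it within 0.5 of no change on the log2 scale. Of the 1298 downregulated genes, 366 (28.2%) did. CHAT, the choline acetyltransferase that makes acetylcholine, rose from 0.0758 to 0.165 CPM (median 0.103) to 5.25 to 7.55 CPM (median 6.94) before recovery. After recovery treated libraries held 0 to 0.110 CPM and untreated ones 0.0475 to 0.120 CPM, and the groups overlapped. The difference of the responses was -5.95 (SE 0.47, edgeR adjusted p = 1.6e-11). SLC32A1, the vesicular transporter for GABA and glycine, was at 9.06 to 13.5 CPM in treated U2OS cells (untreated 0.139 to 0.388) and at 0.0752 to 0.257 CPM in recovered cells (untreated 0.0808 to 0.264). C1QL2, a secreted synaptic organizer, had a difference of the responses of -5.41 (SE 0.45). DNAH3, an axonemal dynein, kept a small excess, with a log2 fold change of 5.01 before and 0.72 after recovery (SE 0.17, edgeR adjusted p = 0.00084).

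Among returned genes that had fallen, the noncoding RNA LINC00452 was at 45.1 to 102 CPM in untreated (median 80.1) and 4.56 to 6.95 CPM in treated U2OS cells (median 5.89). In AID-DIvA cells it was at 61.5 to 67.7 CPM untreated (median 62.6) and 55.1 to 76.1 CPM after recovery (median 62.3). These overlap over both genotypes, but within WT cells recovered libraries were higher, at 68.2 to 76.1 against 61.5 to 64.6 CPM, and within KO cells lower, at 55.1 to 56.4 against 61.7 to 67.7 CPM. The difference of its responses was 3.67 (SE 0.19, edgeR adjusted p = 4.4e-14). ZXDA, a zinc finger protein that with CIITA acts on MHC class II genes, returned only in part, with log2 fold changes of -3.29 (SE 0.10) and -0.86 (SE 0.09). FAM25C, a member of a family of near-identical copies whose reads cannot be assigned with certainty, moved from -2.65 (SE 0.23) to 0.14 (SE 0.16).

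**Figure D3:**
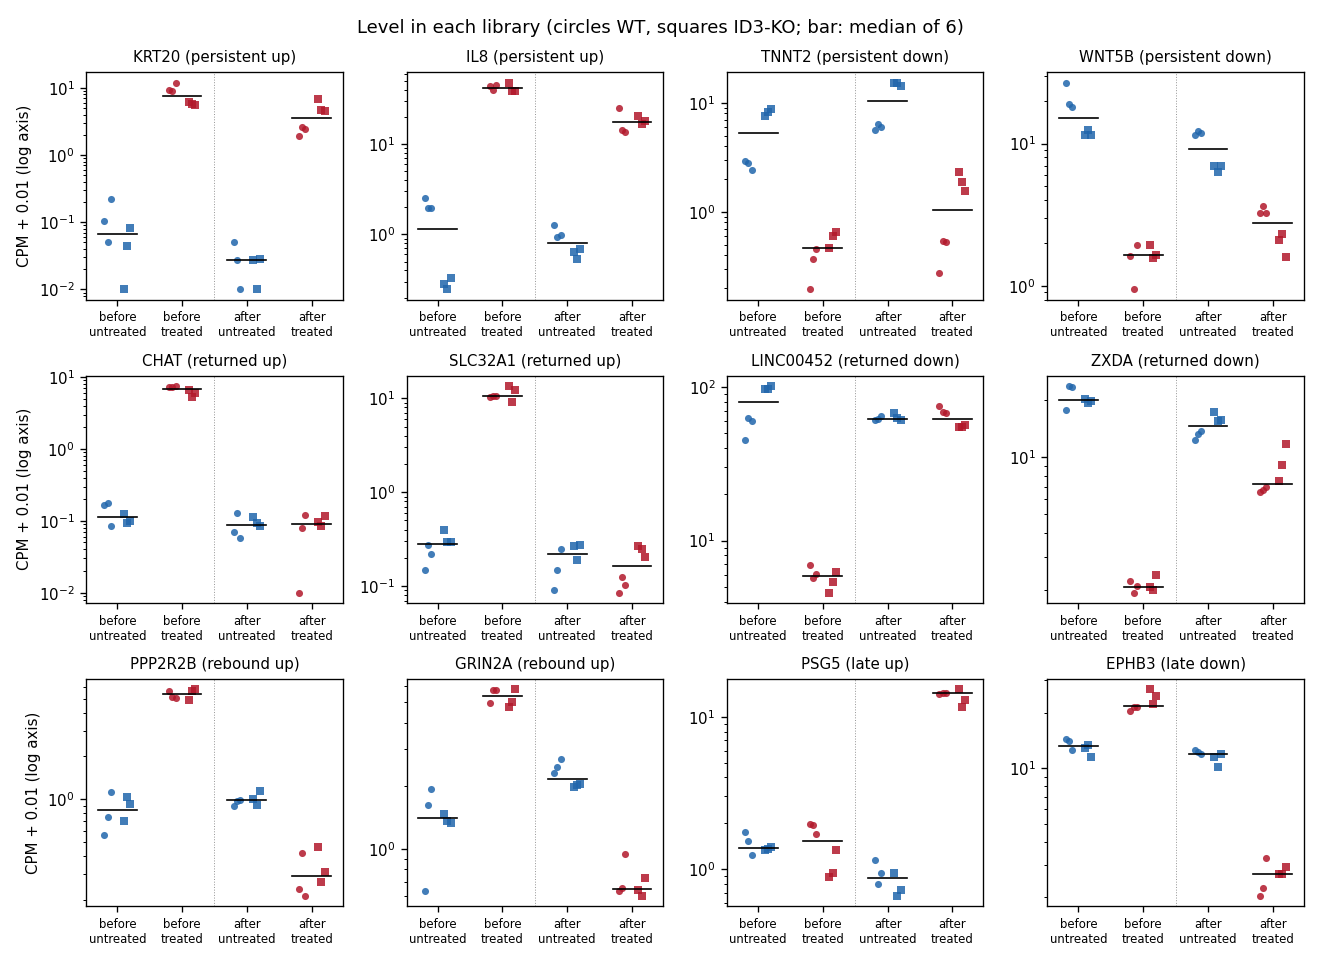
Level of 12 named genes in each library (CPM plus 0.01, log axis), with U2OS untreated and treated (before) and AID-DIvA untreated and recovered (after) side by side, circles for WT, squares for ID3-KO and bars for the median of 6 libraries. KRT20 stayed raised after recovery at 1.88 to 6.81 CPM, whereas treated and untreated SLC32A1 levels overlapped after it.

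Rebound, an overshoot past the untreated level, was rare. It was called for 79 genes that had been upregulated (0.342% of genes tested) and for 10 that had been downregulated (0.0433%). The 79 genes had median log2 fold changes of 1.82 before and -1.37 after recovery. PPP2R2B, a regulatory subunit of protein phosphatase 2A, was at 0.558 to 1.12 CPM untreated (median 0.827) and 4.91 to 5.83 CPM treated (median 5.37) in U2OS cells. In AID-DIvA cells it was at 0.889 to 1.13 CPM untreated (median 0.972) and only 0.202 to 0.456 CPM after recovery (median 0.280). Neither pair of groups overlapped, and its log2 fold changes were 2.68 (SE 0.13) and -1.71 (SE 0.18). GRIN2A, a subunit of the NMDA glutamate receptor, moved from 1.95 (SE 0.14) to -1.69 (SE 0.17), with 0.589 to 0.938 CPM in recovered cells against 1.96 to 2.69 CPM in untreated ones. ZDHHC22, a palmitoyltransferase, moved from 2.54 (SE 0.12) to -1.62 (SE 0.19), and the antisense gene C20orf166-AS1 from 2.59 (SE 0.15) to -1.95 (SE 0.26). Counts were taken from either strand, and with reverse-strand counts alone C20orf166-AS1 moved from 2.60 (SE 0.15) to -1.94 (SE 0.26). No rebound gene that had been downregulated met the rule for naming.

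Late genes passed the thresholds only after withdrawal, and some had a smaller significant response before it. The 208 late upregulated genes had median log2 fold changes of 0.00 before and 1.70 after recovery. PSG5, a pregnancy-specific glycoprotein of the placental trophoblast (ENSG00000204941.9, chr19:43670408-43690688, minus strand), was at 1.23 to 1.75 CPM untreated and 0.875 to 1.96 CPM treated in U2OS cells, which overlap in WT cells, while the KO treated libraries were all below the KO untreated ones. In AID-DIvA cells it went from 0.656 to 1.13 CPM (median 0.859) to 11.7 to 15.2 CPM (median 14.2), a log2 fold change of 4.01 (SE 0.12, edgeR adjusted p = 5.5e-20). The log2 fold change of PSG9 went from 0.40 (SE 0.14) to 3.91 (SE 0.14) and that of PSG4 from 0.42 (SE 0.16) to 3.51 (SE 0.16). These genes are near-identical neighbours, and how reads were split among them is uncertain. KISS1, which encodes the peptide kisspeptin, reached 1.43 to 7.86 CPM after recovery against 0.260 to 0.364 CPM in untreated cells. MYC, the growth-promoting transcription factor, was at 145 to 189 CPM untreated (median 160) and 192 to 243 CPM treated (median 219) before recovery, and at 150 to 204 CPM (median 176) and 448 to 573 CPM (median 524) after it. Its log2 fold change went from 0.43 (SE 0.06) to 1.54 (SE 0.06), a difference of 1.11 (SE 0.08, edgeR adjusted p = 1.2e-12). In the fit of WT cells alone this difference was 0.987, and MYC fell in no group there.

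The 175 late downregulated genes had median log2 fold changes of 0.18 before and -1.35 after recovery. SEMA3D, a secreted guidance cue, was at 0.728 to 2.07 and 1.17 to 1.91 CPM in untreated and treated U2OS cells, and at 0.889 to 1.25 and 0.0368 to 0.226 CPM in untreated and recovered AID-DIvA cells. Its log2 fold change after recovery was -3.10 (SE 0.24). EPHB3, an ephrin receptor, was at 11.5 to 14.4 CPM untreated (median 13.1) and 20.4 to 26.8 CPM treated (median 21.8) before recovery. After recovery it was at 10.2 to 12.6 CPM untreated (median 11.9) and 2.03 to 3.26 CPM treated (median 2.67), so that a log2 fold change of 0.79 (SE 0.08) gave way to -2.15 (SE 0.10). MATN2, a matrix protein, had log2 fold changes of -0.43 (SE 0.07) before and -2.23 (SE 0.08) after recovery. GDF7, a growth factor of the BMP family, had -0.01 (SE 0.11) and -2.09 (SE 0.14).

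The groups differed in their promoters and in the length of their genes. Promoters were read as the 250 bases before and the first 50 bases of each gene's annotated 5′ end in GRCh37, the build of the counts, for 99.8% of the genes tested. CpG density was taken as the observed to expected ratio of CG dinucleotides, which is high in CpG islands, the unmethylated promoters of most broadly expressed genes. The ratio was below 0.5 in 38.3% of all windows. It was below 0.5 in 72.6% of windows of persistent upregulated and 82.7% of late upregulated genes, but in 41.8% of windows of returned upregulated genes. Low-level genes have fewer CpG islands in general, and among genes with a mean of at least 1 CPM the shares were 26.1% for all, 57.1% for persistent upregulated, 75% for late upregulated and 27.3% for returned upregulated genes. Returned downregulated genes were at 51.7% and late downregulated genes at 37% in the same comparison. Genes longer than 100 kb made up 15.8% of all genes, 25.7% of returned upregulated, 31.6% of rebound upregulated and 25.1% of late downregulated genes, against 9.21% of returned downregulated genes. These shares describe the groups and were not tested.

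**Figure D4:**
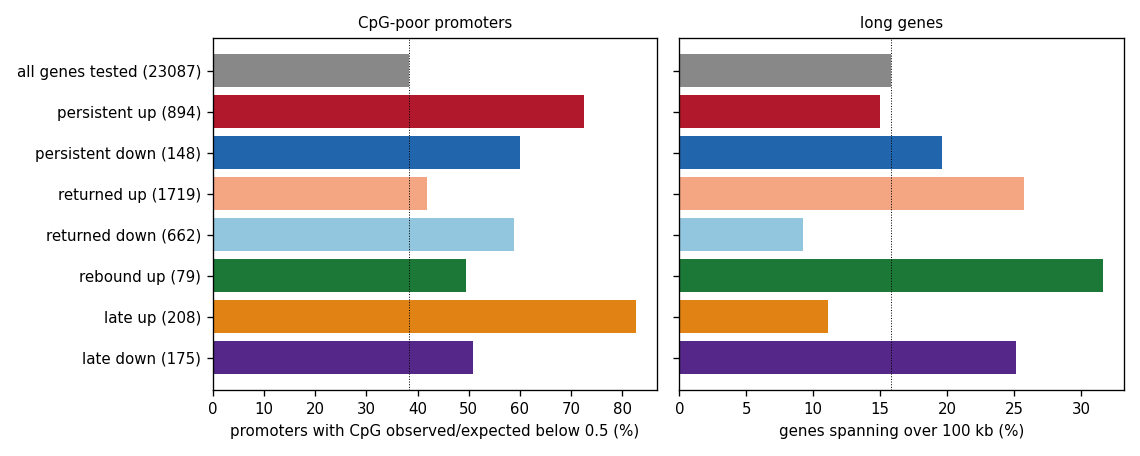
Share of genes (percent) whose promoter window has an observed to expected CG ratio below 0.5, and share of genes spanning over 100 kb, for all genes tested (dotted line) and for 7 gene groups, with the number of genes in brackets. Late upregulated genes have the highest share of CG-poor windows at 82.7%, against 38.3% of all genes.

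The upstream windows of 4 genes show CG-poor and CG-rich examples. Each is the 250 bases before the annotated 5′ end in GRCh37, on the strand of the gene, with CG dinucleotides in capitals. KRT20 (persistent, chr17:39041480-39041729, minus strand) holds 2 and PSG5 (late upregulated, chr19:43690689-43690938, minus strand) holds 1. SLC32A1 (returned, chr20:37352855-37353104, plus strand) holds 28 and EPHB3 (late downregulated, chr3:184279322-184279571, plus strand) holds 21. EPHB3 does not stand for its group: the ratio was below 0.5 in 50.9% of late downregulated windows, against 38.3% of all.
KRT20: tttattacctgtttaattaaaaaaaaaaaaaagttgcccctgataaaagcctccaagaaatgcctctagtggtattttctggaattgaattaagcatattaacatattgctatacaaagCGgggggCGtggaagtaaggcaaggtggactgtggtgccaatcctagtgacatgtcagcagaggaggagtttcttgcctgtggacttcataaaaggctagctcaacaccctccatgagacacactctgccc
PSG5: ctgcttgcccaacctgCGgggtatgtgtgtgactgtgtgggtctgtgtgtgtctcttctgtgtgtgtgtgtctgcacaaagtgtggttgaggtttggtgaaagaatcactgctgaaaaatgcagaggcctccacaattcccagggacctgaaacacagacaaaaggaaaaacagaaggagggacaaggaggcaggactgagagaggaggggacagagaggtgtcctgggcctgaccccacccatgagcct
SLC32A1: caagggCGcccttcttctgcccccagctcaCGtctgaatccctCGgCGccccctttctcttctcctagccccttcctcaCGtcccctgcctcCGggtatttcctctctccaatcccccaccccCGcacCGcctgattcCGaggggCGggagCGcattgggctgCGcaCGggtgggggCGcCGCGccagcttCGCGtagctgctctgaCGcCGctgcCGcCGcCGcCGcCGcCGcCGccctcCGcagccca
EPHB3: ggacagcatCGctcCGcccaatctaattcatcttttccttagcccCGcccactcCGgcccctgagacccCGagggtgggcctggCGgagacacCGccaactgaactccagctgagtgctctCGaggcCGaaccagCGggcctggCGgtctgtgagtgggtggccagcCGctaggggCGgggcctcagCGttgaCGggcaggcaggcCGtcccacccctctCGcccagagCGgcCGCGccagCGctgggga

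Short motifs were counted in the same windows on both strands. TGANTCA, the site bound by AP-1, was present in 6.70% of all windows, in 16.0% of those of persistent upregulated genes and in 16.8% of those of late upregulated genes, against 6.92% for returned upregulated genes. It was present in 10.3%, 11.4% and 9.46% of returned downregulated, rebound upregulated and persistent downregulated genes. Among genes with a mean of at least 1 CPM it was at 5.75% for all, 14.4% for persistent upregulated and 17.7% for late upregulated genes. GGGCGG, the GC box bound by SP1, was present in 48.4% of all windows, in 31.3% and 24.5% of persistent and late upregulated genes, and in 51.4% of returned upregulated genes, an order that follows CG content. TATAAA was present in 9.87% of all windows and in 15.7%, 15.5%, 15.4% and 17.1% of persistent upregulated, persistent downregulated, late upregulated and late downregulated genes. Among genes with a mean of at least 1 CPM these shares were 7.60% for all and, in the same order, 15.6%, 8.96%, 14.6% and 14.8%. The element bound by STAT and IRF factors, searched as GAAA, any 2 bases and GAAA again, was present in 3.38% of all windows, and in 12 of 29 windows of interferon-stimulated genes (41.4%). A match is a run of letters and not evidence of binding. The upstream windows of IL8 and IFIT3, of the same length, show such matches in capitals: the AP-1 letters in IL8 (chr4:74605973-74606222, plus strand) and the STAT and IRF letters in IFIT3 (chr10:91087401-91087650, plus strand), an interferon-stimulated gene of the late upregulated group.
IL8: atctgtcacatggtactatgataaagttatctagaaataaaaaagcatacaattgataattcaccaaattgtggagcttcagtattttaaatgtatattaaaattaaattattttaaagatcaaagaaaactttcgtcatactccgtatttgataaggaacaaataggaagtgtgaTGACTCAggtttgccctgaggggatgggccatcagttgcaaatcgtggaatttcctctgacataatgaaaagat
IFIT3: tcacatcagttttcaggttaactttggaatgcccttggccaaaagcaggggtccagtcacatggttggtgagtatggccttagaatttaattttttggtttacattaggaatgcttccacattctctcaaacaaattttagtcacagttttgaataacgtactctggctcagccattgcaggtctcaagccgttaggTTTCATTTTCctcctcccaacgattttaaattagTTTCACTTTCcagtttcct

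Known gene families and pathways took different courses. The medians over all genes tested were 0.00 before recovery, -0.01 after it and -0.03 for the difference, and each list below is set against these and against the shares of genes called given above. List medians are descriptions, since the lists were chosen with results of these data known.

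**Figure D5:**
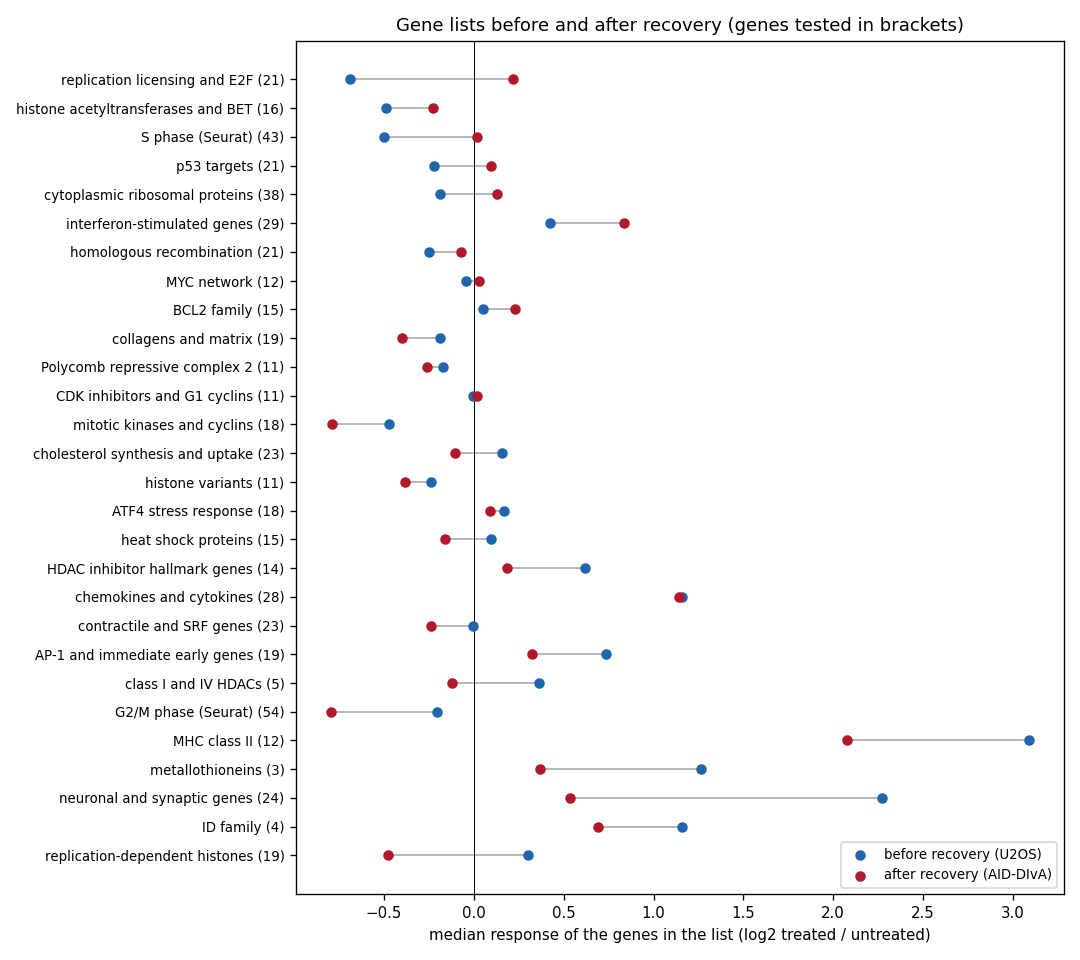
Median log2 fold change of each gene list before (blue) and after recovery (red), with the number of genes tested in brackets. MHC class II genes were highest at both stages at 3.09 and 2.08, and neuronal and synaptic genes moved from 2.27 to 0.54.

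The genes of the drug's own targets were not called. None of the 5 class I and IV deacetylase genes was past the thresholds at either stage by edgeR, 4 were higher and 1 lower before recovery without the fold threshold, and their median log2 fold change was 0.36 before and -0.12 after recovery. HDAC3 was at 58.1 to 67.0 CPM untreated (median 60.4) and 90.0 to 97.5 CPM treated (median 95.6) before recovery, without overlap, and at 54.1 to 61.6 and 49.99 to 59.5 CPM after it, where the groups overlapped in KO but not in WT cells. The difference of its responses was -0.76 (SE 0.07, edgeR adjusted p = 2.8e-10). HDAC1 and HDAC2 had differences of -0.27 (SE 0.06) and -0.48 (SE 0.07), and HDAC8 moved the other way with a difference of 0.29 (SE 0.06).

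Genes used as markers of HDAC inhibition were split. CDKN1A, the cell cycle inhibitor p21, had log2 fold changes of 0.93 (SE 0.06) before and 1.07 (SE 0.06) after recovery. Its level went from 245 to 308 CPM (median 252) to 447 to 524 CPM (median 505) before recovery, and from 154 to 186 CPM (median 164) to 320 to 382 CPM (median 350) after it. The difference of the responses was 0.14 (SE 0.09, edgeR adjusted p = 0.16). H1F0, a linker histone, went from 0.54 (SE 0.05) to -0.08 (SE 0.05), and HEXIM1, an inhibitor of the elongation kinase P-TEFb, from 0.28 (SE 0.06) to -0.16 (SE 0.06). SAT1, a polyamine acetyltransferase, went from 1.99 (SE 0.09) to 0.19 (SE 0.09), and the metallothionein MT1X from 2.15 (SE 0.11) to 0.37 (SE 0.10), although untreated AID-DIvA cells already held more MT1X than untreated U2OS cells by 1.5 on the log2 scale. Of the 14 genes of the list, 2 were upregulated before and 1 after recovery, near the shares of 14.9% and 5.57% over all genes.

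The 4 ID genes diverged. ID2 was upregulated before recovery with a log2 fold change of 1.25 (SE 0.07) and stood at -0.01 (SE 0.07) after it. ID4 moved from 1.89 (SE 0.09) to 0.75 (SE 0.09) and ID1 from 1.07 (SE 0.08) to 0.64 (SE 0.08). ID3 itself moved the other way, from 0.30 (SE 0.10) to 1.07 (SE 0.10), a difference of 0.77 (SE 0.13, edgeR adjusted p = 2.1e-05). In recovered AID-DIvA cells ID3 was at 119 ± 14.2 CPM in WT and 64.8 ± 3.23 CPM in KO cells (SD, n = 3).

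Antigen presentation genes stayed on after withdrawal. Of 12 MHC class II genes tested, which display peptides to helper T cells, 11 were upregulated before and 10 after recovery. The shares over all genes were 14.9% and 5.57%. Of the 12, 10 were persistent, against 3.87% of all genes tested. The median log2 fold changes of the 12 were 3.09 and 2.08. HLA-DMB, a peptide editor, fell back furthest among members of at least 1 CPM, from 4.57 (SE 0.15) to 1.90 (SE 0.19). HLA-DPA1 went from 2.78 (SE 0.14) to 2.39 (SE 0.16) and HLA-DPB1 from 3.57 (SE 0.19) to 2.92 (SE 0.23). CIITA, the transactivator that switches on MHC class II genes, was the exception: it was at 1.78 to 2.34 CPM in treated U2OS cells (untreated 0.571 to 0.937) and at 0.455 to 0.713 CPM in recovered cells (untreated 0.529 to 0.791), which overlap. The difference of its responses was -1.68 (SE 0.19, edgeR adjusted p = 2.0e-08). CD74, the invariant chain, was called at neither stage, with log2 fold changes of 0.35 and 0.28. CIITA and CD74 were singled out after their values were seen, and reads of HLA genes can be shared between copies. The summed level of 10 leukocyte markers moved as well, from 1.73 to 2.85 CPM untreated to 3.43 to 5.84 CPM treated before recovery, and from 1.37 to 3.33 CPM to 5.99 to 8.50 CPM after it, carried by ITGAM and CD3D. PTPRC, of the same 10, went the other way after recovery, from 0.208 to 0.404 CPM untreated down to 0.057 to 0.174 CPM. LYZ and FCGR3A did not exceed 0.0734 CPM in any library, and CD3E was at 0 in every recovered one.

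Chemokines and cytokines were changed at both stages but not as a block. Of 28 tested, 16 were upregulated and 2 downregulated before recovery (14.9% and 5.62% of all genes). After it 15 were upregulated and 2 downregulated (5.57% and 2.46% of all genes). In all, 11 were persistent, 5 had returned, 4 were late and 1 had rebounded. IL1A, an alarmin, moved from 4.28 (SE 0.19) to 2.35 (SE 0.22), and CCL20, which attracts CCR6-bearing lymphocytes, from 5.42 (SE 0.13) to 3.79 (SE 0.15). CCL4 was larger after recovery, at 4.58 (SE 0.25) against 2.13 (SE 0.19), although its recovered level of 0.875 to 4.25 CPM was close to the treated level before recovery of 0.913 to 2.99 CPM, and its untreated level was lower in AID-DIvA cells by 2.45 on the log2 scale. CSF3, the granulocyte growth factor, was at 1.47 to 2.78 CPM in treated U2OS cells and did not exceed 0.0516 CPM in any other library. CSF2, its granulocyte and macrophage relative, behaved in the opposite manner, at 0.0550 to 0.917 CPM in treated U2OS cells against 0.152 to 1.19 CPM untreated, and at 1.17 to 3.48 CPM in recovered cells against 0.0378 to 0.253 CPM. LIF fell from 108 to 161 CPM down to 24.2 to 40.7 CPM before recovery and was at 100 to 128 CPM in recovered cells, above 86.4 to 95.3 CPM in untreated ones. CXCL12 rebounded, with log2 fold changes of 1.5 (SE 0.12) and -1.27 (SE 0.16). CCL20, CSF2 and CSF3 were chosen after their values were seen.

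Most interferon-stimulated genes were higher at each stage taken separately, and more of them passed the fold threshold after withdrawal. Of 29 tested, 4 were upregulated before recovery and 11 after it, against 14.9% and 5.57% of all genes, and 5 were late. Without the fold threshold 17 were higher before recovery (34.8% of all genes) and 18 after it (23.3%), with medians of 0.42 and 0.84 and a median difference of 0.17. IFIT3, an antiviral protein, was at 1.69 to 2.36 CPM untreated (median 1.94) and 0.655 to 1.73 CPM treated (median 1.13) before recovery, and at 2.34 to 2.94 CPM (median 2.59) and 7.35 to 24.4 CPM (median 12.3) after it. Its log2 fold change went from -0.72 (SE 0.21) to 2.24 (SE 0.18), a difference of 2.96 (SE 0.27, edgeR adjusted p = 9.4e-10). IFIT2 went from -0.75 (SE 0.23) to 2.60 (SE 0.18), IFI44 from 0.43 (SE 0.09) to 1.84 (SE 0.09) and BST2, which tethers virus particles to the cell surface, from -0.03 (SE 0.11) to 1.56 (SE 0.12). Untreated and recovered libraries of IFI44 and BST2 overlapped over both genotypes but not within either.

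Most neuronal genes rose while the drug was present, and part of them returned. Of 24 neuronal and synaptic genes tested, 17 were upregulated before recovery (14.9% of all genes) and 6 after it (5.57%). Of the 24, 6 were persistent and 10 had returned, and the list median log2 fold change moved from 2.27 to 0.54. The 10 returned genes of 17 compare with 1719 of 3441 over all genes, and without the fold threshold 13 of the 24 were still higher after recovery (23.3% of all genes). NEFH, the heavy neurofilament protein, went from 4.24 (SE 0.17) to -0.38 (SE 0.24), and SCG2, a secretory granule protein, from 3.82 (SE 0.15) to -0.17 (SE 0.18). SYN1, a synaptic vesicle protein, stayed up in part, at 15.4 to 40.5 CPM in treated U2OS cells (untreated 0.253 to 1.53) and 1.40 to 4.40 CPM in recovered cells (untreated 0.328 to 1.31). REST, the repressor that recruits HDAC1 and HDAC2 to neuronal genes, had log2 fold changes of 0.21 (SE 0.08) and -0.22 (SE 0.08).

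Most replication genes were lower before recovery and higher after it. Of 21 replication licensing and E2F genes, 19 were lower before recovery at an adjusted p below 0.05 without a fold threshold (33.4% of all genes), and 14 were higher after it (23.3% of all genes). MCM5, a subunit of the replicative helicase, was at 261 to 305 CPM untreated (median 288) and 86.6 to 95.3 CPM treated (median 90.7) before recovery, and at 217 to 256 CPM (median 236) and 259 to 307 CPM (median 282) after it. The groups did not overlap at either stage and had changed places, with log2 fold changes of -1.65 (SE 0.05) and 0.25 (SE 0.04). MCM2, MCM3 and MCM7 moved from -0.97, -0.81 and -0.99 to 0.33, 0.38 and 0.25, each with an SE of 0.04. No replication gene was called upregulated after recovery at the threshold of 1. Of 43 S phase genes, 5 were downregulated before recovery (5.62% of all genes) and none was called after it by edgeR. After recovery 15 were higher and 12 lower without the fold threshold (23.3% and 23.9% of all genes).

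G2/M phase genes were lower at both stages and further so after recovery. Of 54 tested, 2 were downregulated before recovery and 12 after it, against 5.62% and 2.46% of all genes. Without a fold threshold 30 were lower and 7 higher before recovery (33.4% and 34.8% of all genes), and 52 were lower after it (23.9%), while 41 had a difference of the responses below 0 (29.2%). Of 18 mitotic kinases and cyclins, 12 were lower before and 17 after recovery by the same count, with medians of -0.47 and -0.79. The median log2 fold change of the 54 G2/M phase genes moved from -0.21 to -0.80. NEK2, a centrosome kinase, was at 56.5 to 65.8 CPM untreated (median 60.9) and 60.6 to 74.1 CPM treated (median 66.0) in U2OS cells, and at 96.7 to 109 CPM untreated (median 102) and 38.3 to 49.7 CPM after recovery (median 44.7) in AID-DIvA cells. Its log2 fold change after recovery was -1.20 (SE 0.05), against 0.13 (SE 0.05) before it. CENPE, a kinetochore motor, went from 0.35 (SE 0.11) to -1.08 (SE 0.11), GAS2L3 from 0.80 (SE 0.08) to -1.04 (SE 0.08) and CDC25C, the phosphatase that opens mitosis, from 0.04 (SE 0.06) to -1.07 (SE 0.06). Untreated AID-DIvA cells held more of the G2/M phase RNAs than untreated U2OS cells, by a median of 0.53 on the log2 scale. The part of that starting level in the later fall was not tested. TTTGAA, the core of the cell cycle homology region, was present in 10 of 18 promoter windows of mitotic kinases and cyclins (55.6%) and in 14.1% of all windows.

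DNA repair by homologous recombination showed no calls at the threshold of 1 among 21 genes at either stage by edgeR. Without the fold threshold 14 were lower and 3 higher before recovery (33.4% and 34.8% of all genes), and 7 were lower and 3 higher after it (23.9% and 23.3% of all genes). BRCA1 went from -0.80 (SE 0.07) to -0.07 (SE 0.07). Of 21 p53 targets, GDF15, a stress hormone, rose at both stages, from 0.995 to 3.98 CPM to 3.34 to 6.47 CPM before recovery and from 0.850 to 1.47 CPM to 8.35 to 16.7 CPM after it, where its log2 fold change was larger by 1.93 (SE 0.25, edgeR adjusted p = 3.1e-07). TP53I3 returned, from -1.34 (SE 0.06) to 0.02 (SE 0.06), and BBC3, which encodes the death effector PUMA, moved from -0.32 (SE 0.09) to 0.77 (SE 0.09).

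Chromatin genes were in part lower at both stages. Of 16 histone acetyltransferase and BET genes, 4 were downregulated before recovery (5.62% of all genes) and none was called after it by edgeR. After recovery 9 were lower and 3 higher without the fold threshold (23.9% and 23.3% of all genes). Before recovery 14 of the 16 were lower by that count (33.4% of all genes). KAT6B went from -1.62 (SE 0.10) to -0.69 (SE 0.10), KAT5 from -1.17 (SE 0.05) to -0.21 (SE 0.05) and KAT2A from -0.79 (SE 0.06) to 0.27 (SE 0.06). H2AFY2, a macroH2A variant, was at 66.6 to 82.9 CPM untreated and 13.0 to 16.3 CPM treated before recovery, and at 52.5 to 63.0 and 40.8 to 61.2 CPM after it. PHF19 and JARID2, accessory subunits of Polycomb repressive complex 2, moved from -2.16 (SE 0.05) and 1.02 (SE 0.07) to -0.77 (SE 0.05) and -0.29 (SE 0.07). Replication-dependent histone genes, whose near-identical copies make single values uncertain, had medians of 0.30 before and -0.48 after recovery.

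Contractile, matrix and early response genes held further opposites. MYOCD, the smooth muscle coactivator of SRF, fell further after withdrawal, from -1.18 (SE 0.18) to -4.57 (SE 0.27), with 0.0736 to 0.196 CPM in recovered cells against 2.02 to 3.84 CPM in untreated ones. TPM1, a tropomyosin, recovered from -1.81 (SE 0.05) to -0.53 (SE 0.05). FBN1, the microfibril protein fibrillin, was late downregulated, with log2 fold changes of 0.04 (SE 0.10) and -1.03 (SE 0.11) and a difference of -1.06 (SE 0.15). COL6A3, a collagen VI chain, was late upregulated, from 0.23 (SE 0.11) to 1.28 (SE 0.11). FOSL1, an AP-1 subunit, moved from -0.92 (SE 0.10) to 0.93 (SE 0.10), while NR4A3, an orphan nuclear receptor, stayed up at 3.40 (SE 0.16) and 1.95 (SE 0.19). FOS and EGR2, immediate early genes, returned from 1.41 (SE 0.29) and 1.69 (SE 0.25) to -0.51 (SE 0.28) and -0.31 (SE 0.29), with treated and untreated libraries apart within each genotype before recovery and overlapping within each after it.

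Among 38 cytoplasmic ribosomal protein genes none was called at either stage by edgeR, but without the fold threshold 22 were lower before recovery (33.4% of all genes) and 15 were higher after it (23.3%), and their median moved from -0.19 to 0.13. Without the fold threshold 32 of the 38 had a difference of the responses above 0 (27.6% of all genes), with a median of 0.34. Cholesterol synthesis genes had medians of 0.16 and -0.11. The ATF4 stress response list had medians of 0.17 and 0.09, the MYC network -0.04 and 0.03, CDK inhibitors and G1 cyclins -0.01 and 0.02, heat shock proteins 0.09 and -0.16 and the BCL2 family 0.05 and 0.23.

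WT and KO cells were also fitted separately. A gene kept its group in both fits for 491 of the 894 persistent upregulated genes (54.9%), 891 of 1719 returned upregulated genes (51.8%), 90 of 208 late upregulated genes (43.3%) and 53 of 175 late downregulated genes (30.3%). It did so for 337 of 662 returned downregulated (50.9%) and 59 of 148 persistent downregulated genes (39.9%). Of the rebound genes 27 of 79 upregulated (34.2%) and 2 of 10 downregulated ones (20%) did. The WT and KO fits use 12 libraries each, and a gene can leave a group by missing a threshold. The difference of the responses itself differed between KO and WT cells at 91 genes that were higher in KO (0.394%) and 52 that were lower (0.225%). Among the genes named above these were CXCL14, DRD1 and KISS1. KISS1 reached 7.22 ± 0.851 CPM in recovered WT cells but 1.56 ± 0.160 CPM in recovered KO cells (SD, n = 3).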

How the data were processed

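RNA was measured in 24 libraries, 3 in each of 8 groups taken from the sample titles. The authors prepared stranded total RNA libraries, read them in pairs on a NovaSeq 6000, used STAR in the Roddy workflow to align them to hg19/GRCh37, and assigned fragments to genes with featureCounts. The deposited values are these counts per gene for 57820 genes, without normalization or pooling, from either strand and by strand. Counts from either strand were used here. The methods name annotation v.29 lift 37, whereas the identifiers in the files lack its lift suffix. The deposited files also hold FPKM and TPM columns, which were not used.

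The analysis used edgeR 4.0.16 in R 4.3.3 (filterByExpr, TMM, robust quasi-likelihood fit, Benjamini-Hochberg adjustment over 23087 genes). A single model of all 24 libraries held the line, and the genotype and the treatment within each line, which gave the response at each stage and the difference of the responses. The KO minus WT test used the same libraries with 8 group means. The SE of a log2 fold change was obtained by dividing it by the root of its F statistic. CPM values use TMM factors over the 24 libraries. At these depths the spread between 3 replicates sets the precision, and a gene below 1 CPM rests on few counts. Replicate pairs all differed by more than sampling noise.

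The named genes are the up to 4 largest of each gene group among protein-coding or otherwise named genes with a mean of at least 1 CPM, without overlap where called and in the same group in the WT and KO fits, plus HDAC1, HDAC2, HDAC3, ID1, ID2, ID3, CDKN1A, H1F0, HEXIM1, MYC and CCND1, and the members of each gene list with the largest difference of the responses. Other names were chosen after their values were seen. The phase lists come from Seurat 5.3.0. The comparison, the gene lists and the rules were chosen with earlier results of these data known. The alternatives were DESeq2 1.42.0, its size factors in edgeR, other filters and thresholds, other genotype terms, WT or KO libraries alone, each line alone, the replicate number as a block, reverse-strand counts and each library left out in turn. The steps were tested on simulated counts. Promoter windows were read from the GRCh37 genome at the annotated gene ends of the deposited files. Some items are not reported here.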

Additional observations from a re-analysis of the deposited data

Results flagged for a closer look

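Responses that differed between the stages by a test of the difference itself are described first: 1320 genes responded higher and 2773 lower after than before recovery, with an adjusted p below 0.05 by edgeR and a difference beyond 1 on the log2 scale. The line label differed between the stages in the same way, and both cannot be told apart.

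The difference of the responses was higher in KO than in WT cells at 91 genes and lower at 52 (adjusted p below 0.05 by edgeR, interaction term over 24 libraries). CXCL14 had a KO minus WT value of -1.82 (SE 0.26, edgeR adjusted p = 0.00033): its log2 fold change went from -3.43 to -2.86 in WT and from -1.02 to -2.26 in KO cells. For DRD1 the value was 1.42 (SE 0.29, edgeR adjusted p = 0.013), with log2 fold changes from -2.80 to -2.92 in WT and from -3.40 to -2.10 in KO cells. KISS1 had a value of -2.26 (SE 0.45, edgeR adjusted p = 0.011), with a log2 fold change after recovery of 4.46 in WT and 2.33 in KO cells.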

How the results depend on the processing

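Counts of calls depended on which genes were tested and on the fold threshold, and not on the tool, by over 1.5 times. With at least 10 counts required in every library, 1613 genes rose and 725 fell before recovery, 467 and 246 after it, and the difference of the responses was higher for 746 and lower for 1559, where fewer genes were tested. The persistent up and down groups then held 285 and 60 genes, the returned groups 944 and 374, the rebound groups 19 and 3 and the late groups 97 and 92. Without the fold threshold 8031 genes rose and 7701 fell before recovery, 5379 and 5511 after it, and the difference was higher for 6367 and lower for 6735. The groups then held 2890 and 2695 persistent, 2762 and 2808 returned, 1416 and 1291 rebound and 831 and 945 late genes. The rarity of rebound and the size of the excess of upregulated genes therefore rest on the fold threshold. The part of low-level genes in that excess was not tested on its own. In KO libraries alone, 18 genes rebounded from below.

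Some list medians moved by more than the spread between replicates, and the cause was not tested. With at least 10 counts in every library the MHC class II medians were 2.12 before, 1.75 after and -0.35 for the difference, those of chemokines and cytokines 0.94, 0.39 and -0.80, and that of neuronal genes before recovery 1.28. MHC class II medians were 3.33 before recovery with 8 group means, 3.89 before and 2.49 after it with reverse-strand counts, and 2.26 after it with each line on its own. In WT libraries alone, medians before recovery were 3.33 for MHC class II, 1.46 for chemokines and cytokines, 0.10 for the MYC network, 0.048 for ATF4 and -0.59 for S phase. After recovery they were -0.67 for mitotic kinases, 0.062 for homologous recombination, 0.55 for interferon-stimulated genes, -0.25 for histones, -0.66 for G2/M and 0.12 for S phase, and the ATF4 median reversed to -0.003. For the difference they were -0.10 for mitotic kinases, -0.32 for histones, -0.17 for BCL2 and -0.39 for G2/M. In KO libraries alone, medians before recovery were 0.15 for CDK inhibitors, -0.59 for replication licensing, 0.58 for interferon-stimulated genes, -0.19 for the MYC network, 0.27 for ATF4, 0.50 for histones, -0.066 for ribosomal proteins and -0.38 for S phase. After recovery they were -0.95 for mitotic kinases, 2.32 for MHC class II, 0.92 for chemokines and cytokines, 0.16 for ATF4, -0.92 for G2/M and -0.074 for S phase. For the difference they were -0.31 for mitotic kinases, -0.70 for chemokines and cytokines, -1.31 for histones, 0.30 for BCL2, -0.65 for G2/M and 0.39 for S phase.

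Leaving out each library in turn kept the counts of calls at each stage, of the difference of the responses and of the gene groups within 1.5 times, with 3560 to 3724 genes upregulated and 1355 to 1399 downregulated before recovery. The genes tested were filtered anew each time, and the counts of 3441 and 1298 with all libraries lie below these ranges. The replication licensing median before recovery ran from -0.70 to -0.61, moving beyond the replicate spread without U2OS WT untreated replicate 1. The MHC class II median ran from 2.98 to 3.51 before recovery, highest without U2OS KO untreated replicate 2, and from -0.88 to -0.47 for the difference, lowest without U2OS WT untreated replicate 2. Counts of calls within gene lists, between the untreated lines and for KO against WT were not recomputed this way. Of 408 values of named genes, none reversed under any alternative, 16 lost their call in WT and 9 in KO libraries alone, and DESeq2 lost none and gained 1. Only 360 values were available with at least 10 counts in every library and 270 with each line on its own. Genes named for a gene group had been chosen for keeping it in the WT and KO fits, so these fits do not test them.

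Replicate numbers showed no steady pairing of the samples. In each line the 18 correlations of same-numbered libraries' deviations were of both signs, from -0.425 to 0.306 in AID-DIvA and from -0.061 to 0.365 in U2OS cells. With 3 replicates a group such correlations are imprecise, and a pairing is not excluded. With the replicate number as a block, 3449 genes rose and 1296 fell before recovery, 1275 and 564 after it, and the difference was higher for 1305 and lower for 2751. The limits are 3 replicates a group, a stage that coincides with the line label, and genes below 1 CPM that rest on few counts.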

Other observations

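Pregnancy-specific glycoproteins are a family of placental genes in a cluster on chromosome 19, and they were chosen here after their values were seen. All 9 PSG genes tested, between positions 43225790 and 43773682 of GRCh37, were upregulated after recovery, against 5.57% of all genes tested. Of these, 7 were late and 2, PSG6 and PSG8, were persistent. Their log2 fold changes after recovery ran from 3.31 for PSG1 to 5.30 for PSG8, with PSG2 at 5.24, PSG11 at 4.75, PSG6 at 3.94 and PSG3 at 3.57. They made up 7 of the 31 late upregulated genes on chromosome 19, which held 14.9% of late upregulated and 6.96% of all genes tested. The family's copies are near-identical, and the 9 values are not independent of each other.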
